A study of Mus musculus with 40 samples.

Results

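The collagen genes were described in choroid and retina of mice with laser-induced choroidal neovascularization (CNV). All protein-coding genes whose symbol reads Col, a number, the letter a and a number were taken, which gave 44 of the 54307 listed genes and of the 21537 protein-coding ones. Retina and choroid came from 20 mice on a C57BL/6J background, 5 in each of the groups control – PLX, *Tgfbr2ΔEC* – PLX, control + PLX and *Tgfbr2ΔEC* + PLX, so that 40 libraries were available. All mice carried floxed *Tgfbr2* alleles, were treated with tamoxifen at an age of 6 to 7 weeks and received 6 laser burns per eye, and tissue was collected 3 days later. *Tgfbr2ΔEC* mice also carried the tamoxifen-inducible Cre recombinase *Cdh5*-CreERT2, which is active in endothelial cells, while controls were littermates without Cre. Mice marked + PLX were fed PLX5622 (PLX), an inhibitor of the CSF1 receptor, from the first tamoxifen dose onward to deplete mononuclear phagocytes (MP). Choroid samples were restricted to the lesioned centre of the tissue.

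Collagens are secreted or membrane-bound proteins whose chains wind into helices of repeated Gly-X-Y units. Fibrillar collagens (types I, II, III, V, XI, XXIV and XXVII) form the load-bearing fibrils of sclera and choroidal stroma, and type II is the main fibrillar collagen of the vitreous. Type IV collagen builds the sheet of basement membranes, including those of Bruch's membrane, of capillaries and of the inner limiting membrane. Types VIII and X form hexagonal networks, of which type VIII is best known from Descemet's membrane of the cornea and from vessel walls, and type X from hypertrophic cartilage. Type VI makes beaded filaments, FACIT collagens (types IX, XII, XIV, XVI, XIX, XX and XXII) sit on the surface of fibrils, and the multiplexins XV and XVIII border basement membranes. Of the 44 genes, 11 were fibrillar, 6 belonged to type IV, 3 to the networks, 6 to type VI, 9 to the FACITs, 2 were multiplexins and 4 encode transmembrane chains. Type VII (anchoring fibrils) had 1 gene and the remaining 2 were *Col26a1* and *Col28a1*.

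The upstream sequences of 3 genes on which the results below turn are given first. *Col10a1* and *Col8a2* are the network collagens that were higher under PLX. *Col1a2* had the highest level of all collagens in choroid per kilobase of the canonical transcript, though not over the length of all exons. RefSeq windows (assembly GRCm38.p6) were found for 35 of the 44 genes. Each window holds the 250 bases before the transcription start on the plus strand, written in lower case, with motif matches on either strand in capitals. The TATA box was searched as the letters TATAAA. The second motif, the box named after its letters CCAAT, was searched as written. For the GC box the letters GGGCGG were used. Matches of different motifs did not overlap in these windows. The windows lie at chr10:34389731-34389980, chr4:126286544-126286793 and chr6:4505368-4505617.
Col10a1: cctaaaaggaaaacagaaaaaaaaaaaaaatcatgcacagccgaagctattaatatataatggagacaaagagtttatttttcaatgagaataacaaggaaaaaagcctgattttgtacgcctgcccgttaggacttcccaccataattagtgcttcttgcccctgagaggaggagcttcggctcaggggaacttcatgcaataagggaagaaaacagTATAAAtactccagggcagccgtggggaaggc
Col8a2: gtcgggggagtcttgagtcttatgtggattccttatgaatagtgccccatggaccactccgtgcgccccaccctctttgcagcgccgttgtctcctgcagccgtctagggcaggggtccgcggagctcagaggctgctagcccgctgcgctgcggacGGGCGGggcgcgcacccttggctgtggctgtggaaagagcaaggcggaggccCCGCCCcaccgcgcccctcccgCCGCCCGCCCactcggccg
Col1a2: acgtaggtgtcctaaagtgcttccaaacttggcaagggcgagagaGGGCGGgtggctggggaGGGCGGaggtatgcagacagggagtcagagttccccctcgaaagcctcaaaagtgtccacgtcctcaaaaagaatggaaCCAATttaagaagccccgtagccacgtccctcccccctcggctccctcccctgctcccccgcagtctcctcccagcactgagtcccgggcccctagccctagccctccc
The *Col10a1* window held 1 TATA box match, from 32 to 27 bases before the start, no CCAAT or GC box match, and a GC content of 41.6%. The *Col8a2* window held no TATA or CCAAT box match, 4 GC box matches, of which the last pair overlaps, and a GC content of 70.0%. The *Col1a2* window held 1 CCAAT box match, 2 GC box matches and a GC content of 62.0%. Among all 32851 windows of this length, 12.4% held a TATA box match, 33.8% a CCAAT box match and 32.7% a GC box match, so none of these is rare. The 2 network genes that were higher under PLX thus shared none of these motifs in their windows.

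The values are normalized counts from DESeq2 made by the authors, and levels of different genes are compared per kilobase (kb) of the Ensembl canonical transcript. The normalized counts of a library summed to 22256900 to 25956200. The labelled tissues carried their markers: summed levels of 10 photoreceptor genes were 1035430 to 1542450 in retina and 4014 to 138483 in choroid, and those of 7 pigment epithelium genes were 158263 to 365824 in choroid and 1659 to 8895 in retina. The choroid also held 10 fibroblast and sclera markers (summed 167754 to 328854, against 879 to 1789 in retina) and 8 skeletal muscle markers (16083 to 148090, against 66.4 to 187). Markers of Müller glia and astrocytes and those of lens and cornea did not separate the tissues. The 6 glial markers summed to 39646.6 to 81330.5 in choroid and 44182.7 to 70330.1 in retina. The 6 lens and cornea markers summed to 76.2 to 4636 in choroid and 14.9 to 13680 in retina. The part of such tissue in the collagen levels was not tested. None of these markers was at 0 in all libraries of a tissue. *Tgfbr2*, the floxed gene, did not separate the genotypes in choroid without PLX (exact permutation test, two-sided, p = 0.524). It had 10503 ± 425 (SD, n = 5) normalized counts in control – PLX and 10176 ± 1077 (SD, n = 5) in *Tgfbr2ΔEC* – PLX. The paper reports the deletion in choroidal and retinal endothelium and checked it by PCR and qPCR of choroid. Bulk choroid also holds other cells, so these counts do not test the deletion in endothelial cells.

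Choroid was dominated by fibrillar collagens and retina by none of the classes. All 44 collagens had a mean of at least 1 normalized count in both tissues, and 43 in choroid and 44 in retina were above 0 in all 20 libraries, with *Col19a1* as the exception. In choroid 13 collagens had a mean of at least 10000 and 26 of at least 1000, whereas in retina 7 reached 1000 and 0 reached 10000. Together the collagens made up 2.64% ± 0.247 (SD, n = 20) of all normalized counts of a choroid and 0.0868% ± 0.0115 (SD, n = 20) of those of a retina. Fewer cells of a type and less RNA per cell cannot be told apart in these bulk samples.

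Within the summed collagen level per kb, the 11 fibrillar genes held 66.2% ± 2.39 (SD, n = 20) in choroid and 18.3% ± 2.00 (SD, n = 20) in retina. Type IV was the smaller part in choroid, at 3.699% ± 0.294, against 18.1% ± 2.70 in retina (SD, n = 20 each). The 3 network genes had a share of 10.9% ± 1.58 in choroid and 3.28% ± 1.23 in retina (SD, n = 20 each). For fibrillar, type IV and network collagens the lowest library of the tissue with the larger share was above the highest of the other, with 60.9% against 21.2%, 12.2% against 4.53% and 8.04% against 5.79%. A share is a relative measure, and the level of type IV itself was higher in choroid, as given below. The transmembrane collagens held 0.305% ± 0.0849 in choroid and 17.6% ± 2.34 in retina, and type VII, the collagen of anchoring fibrils, 0.0149% ± 0.0104 and 3.32% ± 0.779 (SD, n = 20 each). Type VI held 7.09% ± 0.335 and 17.3% ± 1.53, and the FACITs 9.93% ± 1.30 and 17.004% ± 2.86 (SD, n = 20 each).

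**Figure D1:**
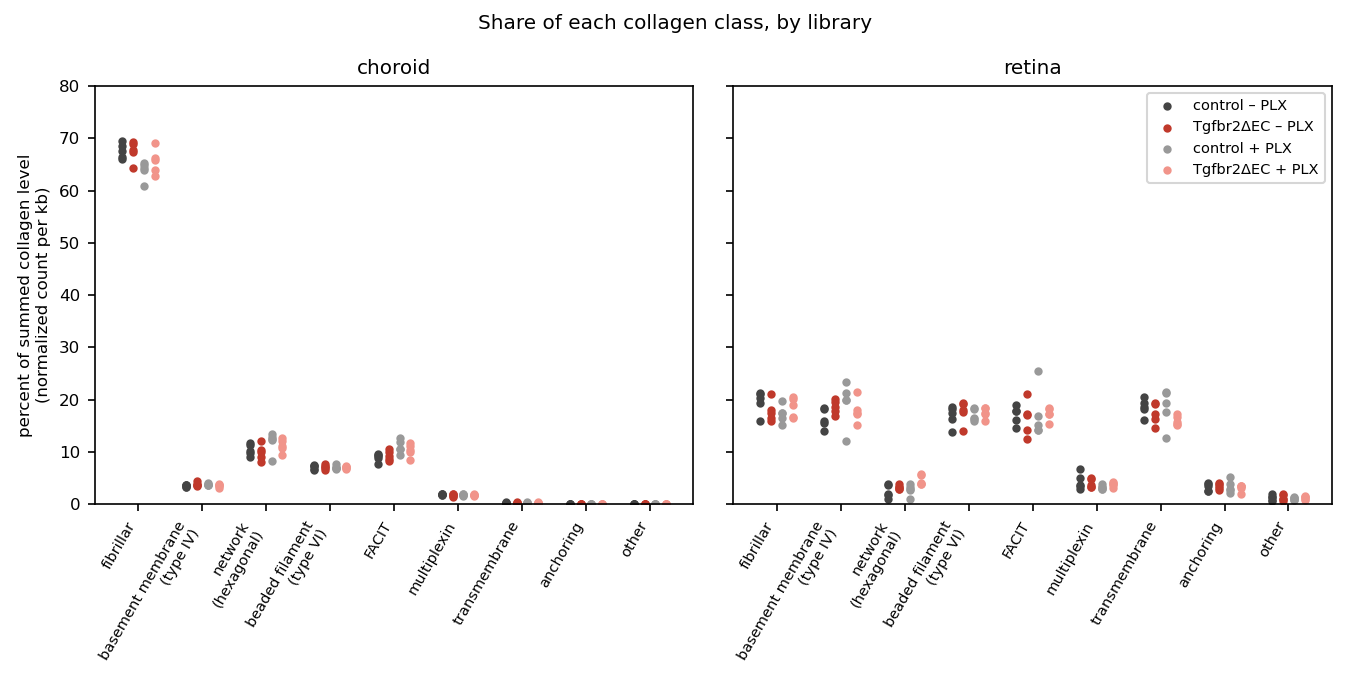
Share of each collagen class in the summed collagen level (percent of normalized counts per kb, vertical axis), with 1 point per library and the 4 groups of a tissue side by side in colours. In choroid (left) the fibrillar genes held 60.9% to 69.5%, while in retina (right) no class exceeded 25.6%.

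In choroid the order per kb was led by the chains of type I and type III collagen, the main fibril formers of sclera and stroma. *Col1a2* stood at 28789 ± 3154, *Col1a1* at 25494 ± 3850 and *Col3a1* at 16295 ± 4440 normalized counts per kb (SD, n = 20 each). The ranges of *Col1a2* (23388 to 33998) and *Col1a1* (19249 to 32448) overlapped, and with the length of all exons in place of the canonical transcript the order of this pair was reversed. *Col8a2*, a chain of the type VIII network, followed at 7557 ± 1321, ahead of the fibril-associated *Col12a1* at 4904 ± 1011 and of *Col8a1* at 3993 ± 717 (SD, n = 20 each). *Col6a1* (3134 ± 269) led type VI by the canonical transcript, *Col4a1* (2314 ± 260) type IV and *Col18a1* (1522 ± 152), the source of endostatin, the multiplexins (SD, n = 20 each). The ranges of *Col6a1* (2538 to 3497) and *Col6a3* (1778 to 3937) overlapped, and over all exons *Col6a3* stood before *Col6a1*. The lowest collagen was *Col19a1*, a FACIT, at 1.14 ± 0.753 per kb (SD, n = 20).

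Retina had another order, without type I at its head. *Col6a1* stood first at 523.8 ± 58.9 normalized counts per kb, followed by *Col23a1*, a transmembrane collagen, at 437 ± 90.1 (SD, n = 20 each), and their ranges overlapped. *Col2a1*, the fibrillar collagen of vitreous and cartilage, had 271 ± 72.1, and *Col9a1*, a chain of its FACIT partner type IX, 199.7 ± 41.6 (SD, n = 20 each). *Col4a1* (196 ± 43.9) and *Col4a2* (187 ± 18.8), the chains of the ubiquitous type IV trimer, came next and their ranges overlapped (SD, n = 20 each). This order holds for the canonical transcript. Over the length of all exons it ran *Col23a1*, *Col6a1*, *Col4a2*, *Col4a1*, *Col2a1* and *Col9a1*. *Col1a2* was in place 26 and *Col1a1* in place 31 of 44, at 26.8 ± 20.7 and 19.2 ± 14.6 per kb (SD, n = 20 each), and over all exons they were in places 32 and 29. Of the network genes *Col8a2* led with 63.3 ± 38.7 per kb, and *Col10a1* was in place 41 at 1.65 ± 1.16 (SD, n = 20 each).

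**Figure D2:**
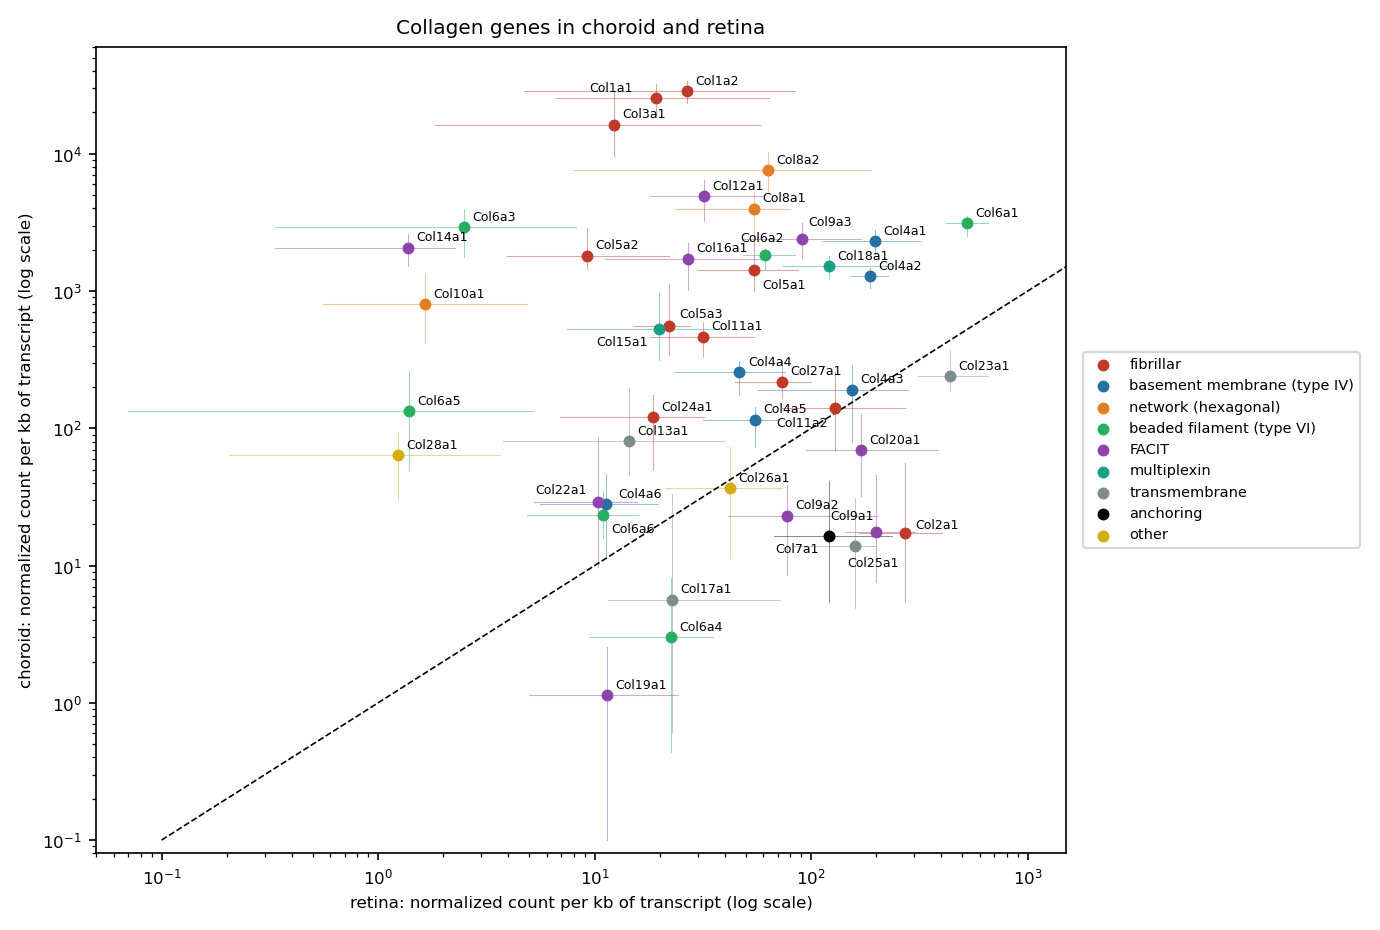
Mean normalized count per kb of each of the 44 collagens in retina (horizontal axis, log scale) and choroid (vertical axis, log scale), coloured by class, with lines from the lowest to the highest of 20 libraries and a dashed line of equal level. Type I and III genes lie near 10000 or more in choroid and below 100 in retina, whereas *Col2a1*, *Col9a1*, *Col25a1* and *Col7a1* lie under the dashed line. The lowest choroid value of *Col19a1* was 0 and its line was ended at 0.1.

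The test across all genes asked which collagens differ between the tissues. Of the 44, 32 were higher and 10 lower in choroid (adjusted p at or under 0.05, limma with Benjamini-Hochberg adjustment over all genes). The background was high, since 82.0% of the 24317 tested genes were called, 40.8% higher and 41.1% lower. The median difference of the collagens was 2.76 on the log2(normalized count + 1) scale, beside -0.01 for all tested genes. In 28 collagens all 20 choroids were above all 20 retinas and in 7 all were below, and 9 overlapped, whereas 33.6% of all genes had no overlap in either direction. The 10 fibroblast and sclera markers were all higher in choroid and the 10 photoreceptor markers all lower, and their part in the collagen differences was not tested.

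By class, 9 of 11 fibrillar, 6 of 6 type IV, 3 of 3 network, 5 of 6 type VI, 5 of 9 FACIT and 2 of 2 multiplexin genes were higher in choroid. The type IV count, and with it the 32 higher in all, holds *Col4a3* (0.38, adjusted p = 0.0448 from limma), whose tissues overlapped and which was not past the threshold with the mouse as a block (adjusted p = 0.0745) or in 13 of 20 fits without 1 mouse. Lower were 1 fibrillar, 1 type VI, 4 FACIT, 3 of 4 transmembrane genes and *Col7a1*. The median difference was 4.62 for fibrillar, 1.91 for type IV and 7.16 for network genes on the log2 scale. The largest differences toward choroid were those of *Col3a1* (10.98, standard error 0.296), *Col6a3* (10.62, standard error 0.280) and *Col1a1* (10.60, standard error 0.184). *Col3a1* ranged from 53791 to 160785 normalized counts in choroid with a median of 88596, and from 10.2 to 323 in retina with a median of 35.04. For *Col1a1* the choroids ranged from 114144 to 192417 (median 145602) and the retinas from 39.3 to 377 (median 87.2). No choroid value of these genes came near a retina value.

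The largest differences toward retina were those of *Col2a1* (-4.28, standard error 0.204), *Col9a1* (-3.68, standard error 0.172) and *Col25a1* (-3.62, standard error 0.147). *Col2a1* ranged from 865 to 2088 normalized counts in retina (median 1343) and from 28.5 to 291 in choroid (median 53.0). *Col25a1*, a transmembrane collagen of neurons, ranged from 217 to 523 in retina (median 434) and from 12.8 to 81.3 in choroid (median 31.8). The choroids were thus below the retinas without overlap for these genes. *Col19a1* (-3.53), *Col6a4* (-3.14), *Col7a1* (-3.07) and *Col17a1* (-2.43), a hemidesmosome collagen, were lower in choroid as well on the log2 scale. *Col11a2*, the partner of *Col11a1*, and *Col26a1* did not pass the test, with differences of 0.12 (adjusted p = 0.492) and -0.31 (adjusted p = 0.181) from limma. That of *Col11a2* was 0.04 without mouse 15 and 0.23 without mouse 11. Calculated within each genotype and diet, the difference kept its direction in all 4 pairs of groups for each of the 42 called collagens. It was 10.05 to 11.51 for *Col3a1*, 3.45 to 3.72 for *Col4a1* and -4.81 to -3.15 for *Col2a1*.

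Type IV collagen exists as trimers of *Col4a1* and *Col4a2* chains in most basement membranes, and of *Col4a3*, *Col4a4* and *Col4a5* chains in specialised ones such as that of the kidney glomerulus. The genes lie head to head in pairs, *Col4a1* (chromosome 8 of GRCm39, 11248423 to 11362826, minus strand) with *Col4a2* (11362471 to 11499287, plus strand), and *Col4a4* (chromosome 1, 82426144 to 82564800, minus strand) with *Col4a3* (82564642 to 82699780, plus strand). Because the members of these pairs overlap at their starts, reads of the overlaps could be told apart only by strand, which the libraries keep. *Col4a1* had 15308 ± 1722 normalized counts in choroid and 1299 ± 290 in retina, and *Col4a2* 8667 ± 795 and 1260 ± 127 (SD, n = 20 each). Their tissue differences on the log2 scale were 3.58 (standard error 0.076) and 2.78 (standard error 0.046). *Col4a3* and *Col4a4* parted more. *Col4a4* was higher in choroid by 2.51 (standard error 0.106), with 2655 ± 440 against 483 ± 152 normalized counts (SD, n = 20 each). *Col4a3*, in contrast, had 1636 ± 431 in choroid and 1320 ± 567 in retina (SD, n = 20 each). The tissue effect for it was 0.38 (standard error 0.177), which limma placed at an adjusted p of 0.0448, close to the threshold, and with the mouse as a replicate block it was no longer past it (adjusted p = 0.0745 from limma). It also fell short without 13 of the 20 mice in turn.

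Ratios between chains were therefore compared within each mouse, in 13 ratios of levels per kb. A two-sided permutation test exchanged the tissues of a mouse (100000 resamples). The chains of a ratio belong to the same trimer or pair, except for *Col4a3* and *Col4a1*. The ratio *Col4a3* to *Col4a1* had medians of 0.0835 in choroid and 0.648 in retina (permutation p = 1e-05). The ratio *Col4a1* to *Col4a2* had a median of 1.79 (1.63 to 2.00) in choroid and 1.02 (0.691 to 1.56) in retina, and was higher in choroid in 20 of 20 mice (permutation p = 1e-05, the smallest the resamples can give). *Col4a3* to *Col4a4* had a median of 0.765 (0.458 to 0.945) in choroid and 3.29 (1.30 to 5.74) in retina, and was lower in choroid in 20 of 20 mice (permutation p = 1e-05). The retina thus held more *Col4a3* than *Col4a4* per kb, and the choroid the opposite. *Col4a5* to *Col4a6*, a pair on chromosome X, had medians of 4.26 in choroid and 5.15 in retina (permutation p = 0.0737, lower in choroid in 13 of 20 mice), a mean difference of -0.24 on the log2 scale with an SD over mice of 0.564.

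Type VI collagen is assembled from *Col6a1*, *Col6a2* and one further chain, mostly *Col6a3*. In choroid these genes were close to each other per kb: *Col6a1* to *Col6a2* had a median of 1.70 (1.56 to 1.83) and *Col6a3* to *Col6a2* of 1.56 (1.23 to 1.93). In retina *Col6a1* exceeded *Col6a2* by a median ratio of 8.64 (6.59 to 11.5), and *Col6a3* to *Col6a2* was 0.0182 (0.0046 to 0.159). In 20 of 20 mice *Col6a1* to *Col6a2* was lower and *Col6a3* to *Col6a2* higher in choroid than in retina (permutation p = 1e-05 and p = 2e-05). *Col6a3* had 22.8 ± 22.2 normalized counts in retina, with a range of 3.05 to 74.6, against 26633 ± 4597 in choroid (SD, n = 20 each). Per kb, the retina had *Col6a3* at 2.50 ± 2.43, and its alternatives *Col6a4* at 22.5 ± 7.13, *Col6a5* at 1.38 ± 1.43 and *Col6a6* at 10.97 ± 3.69, beside *Col6a2* at 61.2 ± 8.55 (SD, n = 20 each). *Col6a1* was the first collagen of the retina by level per kb of the canonical transcript.

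Type IX collagen, the FACIT that covers type II fibrils, is a trimer of *Col9a1*, *Col9a2* and *Col9a3* chains, and its genes went in opposite directions. *Col9a3* was higher in choroid by 4.77 on the log2 scale (standard error 0.103), with 6855 ± 1044 normalized counts against 260 ± 86.8 in retina (SD, n = 20 each). *Col9a1* and *Col9a2* were lower in choroid, with differences of -3.68 and -1.74 (standard errors 0.172 and 0.196). The ratio *Col9a3* to *Col9a1* had a median of 180 (40.3 to 375) in choroid and 0.421 (0.273 to 0.708) in retina. Neither gene overlapped between the tissues, so the ratio had to be higher in choroid in 20 of 20 mice (permutation p = 1e-05). For this ratio the permutation test therefore adds nothing to the differences of the genes. Every choroid thus held more *Col9a3* than the other type IX chains, and every retina less *Col9a3* than *Col9a1*. *Col9a3* overlaps the coding gene *Tcfl5* on the other strand. *Col11a1* to *Col11a2*, chains of type XI that join type II and type V fibrils, showed a similar pattern, with medians of 3.54 in choroid and 0.251 in retina (permutation p = 1e-05). *Col5a1* to *Col5a2* had medians of 0.786 in choroid and 6.19 in retina (permutation p = 1e-05, lower in choroid in 20 of 20 mice).

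For the type I genes, the most abundant in choroid but low in retina, the ratio did not part the tissues. *Col1a1* to *Col1a2* had a median of 0.88 (0.713 to 1.00) in choroid and 0.936 in retina, where single mice ranged from 0.205 to 8.19. The mean difference was 0.18 on the log2 scale with an SD over mice of 1.17 (permutation p = 0.516, higher in choroid in 10 of 20 mice). *Col8a1* to *Col8a2*, the type VIII chains, had medians of 0.535 in choroid and 0.959 in retina (permutation p = 3e-05, lower in choroid in 18 of 20 mice). Of the 13 ratios, 11 had an adjusted p at or under 0.000886 after adjustment over the 13, and the ratios of *Col1a1* to *Col1a2* (0.516) and of *Col4a5* to *Col4a6* (0.0798) did not pass 0.05.

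**Figure D3:**
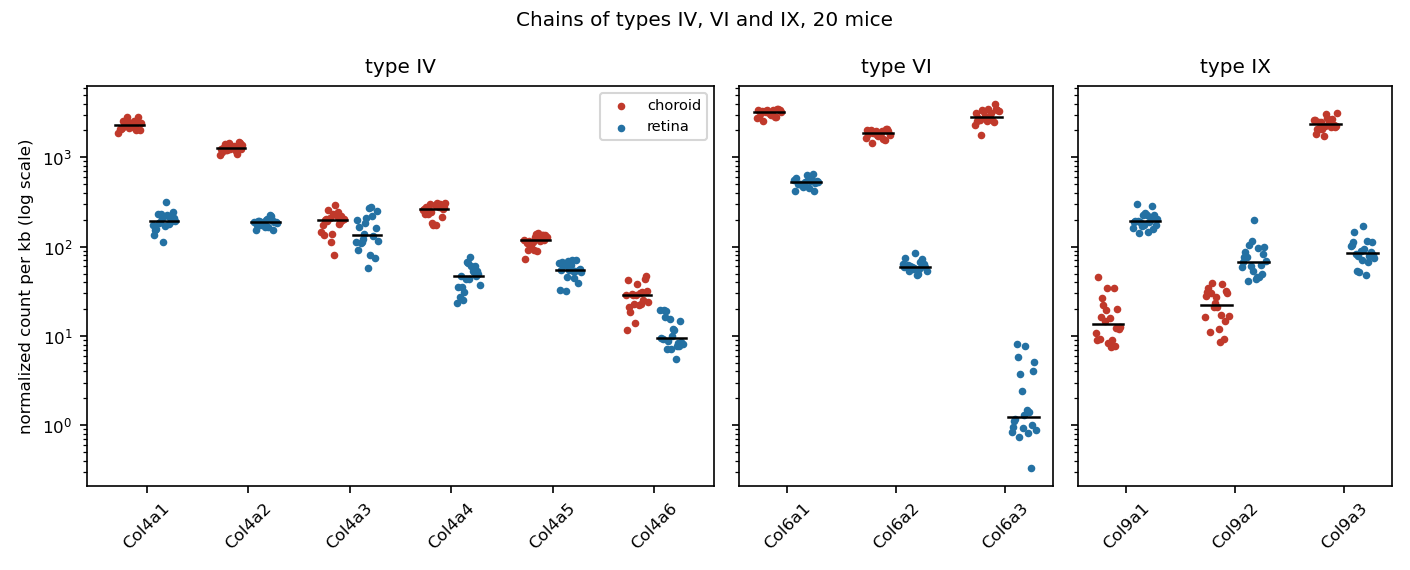
Level per kb (normalized counts, log scale, vertical axis) of the chains of types IV, VI and IX in choroid (red) and retina (blue), with 1 point per mouse and a bar at the median of 20 mice. *Col6a3* falls to a median near 1 in retina while *Col6a1* stays above 400, and *Col9a3* lies above *Col9a1* in choroid and below it in retina.

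Variation between mice of a group was smaller in choroid than in retina, with a median SD within groups of 0.351 and 0.530 on the log2 scale over the 44 genes. In both tissues *Col4a2* and *Col6a1* were among the 3 steadiest collagens, with SDs of 0.139 and 0.133 in choroid and 0.140 and 0.169 in retina. The most variable were *Col17a1* (1.37) and *Col19a1* (1.28) in choroid and *Col3a1* (1.35) and *Col6a3* (1.30) in retina, genes that were low in these tissues.

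With PLX, 2 of the 3 network collagens and 1 FACIT were higher in choroid and no collagen was lower. Over both genotypes, 3 of the 44 collagens were higher with PLX and 0 were lower in choroid (limma with Benjamini-Hochberg adjustment), where 7.13% of the 23619 tested genes were called, 2.07% higher and 5.06% lower. The 3 genes were *Col10a1*, *Col12a1* and *Col8a2*, that is 2 of the 3 network genes, 1 of the 9 FACITs and 0 of the fibrillar and type IV genes. At an unadjusted p under 0.05 there were 8 collagens, against 19.3% of all genes. The median difference over the 44 collagens was 0.07 on the log2 scale, beside 0.00 for all genes tested, and by class it was -0.01 for fibrillar, 0.17 for type IV and 0.33 for network genes.

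*Col10a1* (chromosome 10, 34265971 to 34273081) encodes the single chain of type X collagen. In control – PLX choroids it was 1864, 1418, 1320, 2034 and 2479 normalized counts, and in control + PLX choroids 2519, 2478, 2415, 2612 and 2937. In *Tgfbr2ΔEC* – PLX choroids it was 1865, 1378, 3147, 2260 and 1428, and in *Tgfbr2ΔEC* + PLX choroids 2959, 3683, 3998, 3646 and 4182. In controls the highest mouse without PLX (mouse 5) overlapped the mice with PLX, and in *Tgfbr2ΔEC* mice mouse 8 lay above the lowest mouse with PLX. The difference over both genotypes was 0.74 on the log2 scale (standard error 0.136, adjusted p = 0.00096 from limma), a 1.67-fold higher level. It was 0.54 in controls (adjusted p = 0.158) and 0.93 in *Tgfbr2ΔEC* mice (adjusted p = 0.00506), and these effects did not differ past the threshold (difference -0.39, 95% interval -0.96 to 0.17, adjusted p = 0.945 from limma, coded as the genotype effect without PLX minus that with PLX). *Col10a1* overlaps the coding gene *Nt5dc1* on the other strand.

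*Col12a1* (chromosome 9, 79506268 to 79626135), a FACIT that bridges fibrils of type I, was 43992, 54574, 42445, 54097 and 38398 normalized counts in control – PLX and 56170, 76963, 59149, 76091 and 73108 in control + PLX choroids. All controls with PLX were above all controls without it. In *Tgfbr2ΔEC* mice it was 47544, 53330, 52435, 54052 and 46192 without PLX and 66300, 52888, 72064, 72436 and 69646 with PLX, where mouse 17 overlapped the untreated mice. Over both genotypes the difference was 0.47 (standard error 0.086, adjusted p = 0.0010 from limma). It was 0.55 in controls (adjusted p = 0.00978) and 0.39 in *Tgfbr2ΔEC* mice (adjusted p = 0.0836). The difference in controls was not past the threshold in the 10 control mice alone (0.55, adjusted p = 0.0746 from limma) or with the fibroblast and sclera score as a covariate (0.38, adjusted p = 0.167). Within controls, 3.75% of all genes were called (0.601% higher and 3.15% lower, with 13.8% at an unadjusted p under 0.05) and *Col12a1* was the only collagen among them. Within *Tgfbr2ΔEC* mice 4.06% were called (0.559% higher and 3.50% lower, with 15.4% at such a p) and *Col10a1* was the only collagen. Groups of 5 mice had no overlap for *Col12a1* alone of the collagens in controls, beside 4.21% of all genes, and for *Col8a2* alone in *Tgfbr2ΔEC* mice, beside 6.52%.

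*Col8a2* (chromosome 4, 126180559 to 126208123), the most abundant network collagen in choroid, was 30753, 32135, 23772, 32874 and 28512 normalized counts in control – PLX and 41465, 26602, 37472, 44847 and 36443 in control + PLX choroids. In *Tgfbr2ΔEC* mice it was 28513, 33258, 30461, 28459 and 22550 without PLX and 34525, 34426, 34766, 36302 and 40726 with PLX. The *Tgfbr2ΔEC* groups did not overlap, whereas mouse 12 of the controls with PLX lay among the untreated controls. Over both genotypes the difference was 0.33 (standard error 0.091, adjusted p = 0.0277 from limma), and it was 0.32 in controls (adjusted p = 0.234) and 0.34 in *Tgfbr2ΔEC* mice (adjusted p = 0.165). *Col8a1*, its partner in type VIII, had a difference of 0.02 and did not pass the test. Without mouse 3, 11, 14 or 20, *Col8a2* was no longer past the threshold (adjusted p = 0.0558, 0.0557, 0.0596 and 0.0585).

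Markers of several cell types also differed between the diets in choroid, and their association with these genes across mice was not measured. Of 10 fibroblast and sclera markers 6 were higher with PLX, and their score, the mean of log2(normalized count + 1), was 12.97 ± 0.200 in control – PLX, 12.98 ± 0.219 in *Tgfbr2ΔEC* – PLX, 13.25 ± 0.183 in control + PLX and 13.38 ± 0.133 in *Tgfbr2ΔEC* + PLX choroids (SD, n = 5 each). The photoreceptor score was 12.05 ± 0.677 (11.4 to 12.9) in *Tgfbr2ΔEC* – PLX and 9.85 ± 0.629 (9.02 to 10.3) in *Tgfbr2ΔEC* + PLX choroids, without overlap, and 9.66 ± 1.28 and 9.76 ± 2.00 in control – PLX and control + PLX choroids (SD, n = 5 each). Of 8 endothelial markers 4 were higher, of 8 mural markers 2, and of 12 MP markers 11 were lower. Of all tested genes 2.07% were higher and 5.06% lower. With the fibroblast and sclera score as a covariate, *Col10a1* had a difference of 1.00 (adjusted p = 0.00156 from limma), *Col12a1* of 0.27 (adjusted p = 0.307) and *Col8a2* of 0.31 (adjusted p = 0.347). With the photoreceptor score as a covariate, *Col8a2* had 0.33 (adjusted p = 0.068), and *Col10a1* in *Tgfbr2ΔEC* mice had 1.16 (adjusted p = 0.00328 from limma). The part of the other markers was not tested.

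**Figure D4:**
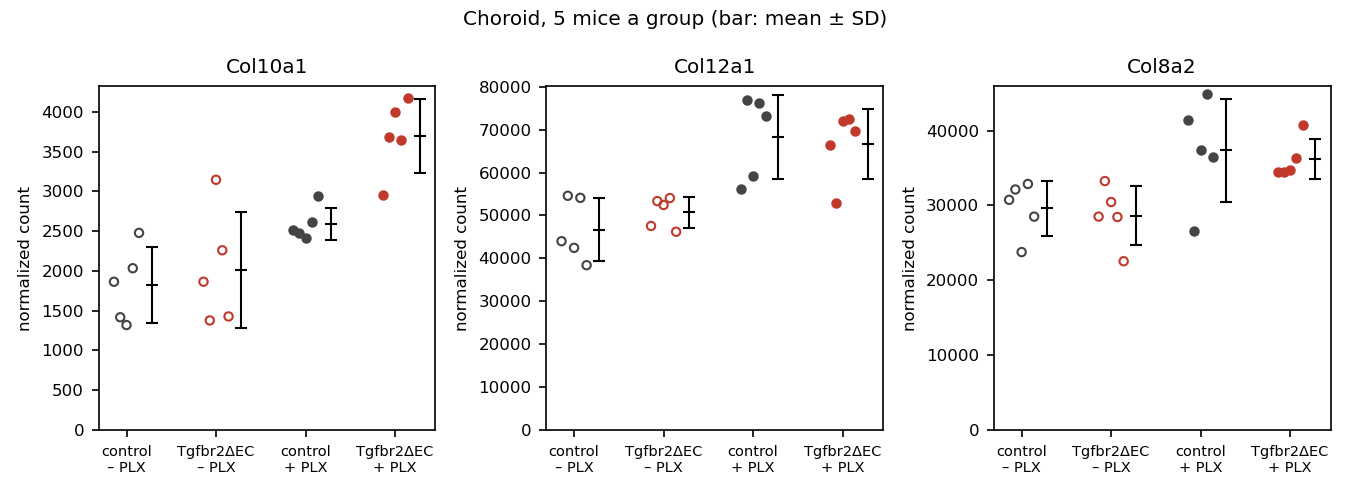
Normalized counts (vertical axis, from 0) of *Col10a1*, *Col12a1* and *Col8a2* in choroid, with 1 point per mouse in 4 groups (open without PLX, filled with PLX, dark grey control, red *Tgfbr2ΔEC*) and a bar for the mean ± SD of 5 mice. *Col10a1* reached 2959 to 4182 in *Tgfbr2ΔEC* + PLX mice and at most 2937 in control + PLX mice.

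The other collagens of the choroid did not pass the test with PLX. The next by p were *Col4a5* (0.26, adjusted p = 0.121), *Col9a3* (0.21, adjusted p = 0.178) and *Col16a1* (0.27, adjusted p = 0.185), a FACIT. The intervals of the abundant type I genes spanned 0. *Col1a1* had a difference of 0.11 (95% interval -0.10 to 0.32) and *Col1a2* of 0.08 (95% interval -0.09 to 0.25). For the main type IV genes the differences were 0.07 (95% interval -0.09 to 0.22) for *Col4a1* and 0.05 (95% interval -0.08 to 0.19) for *Col4a2*. *Col3a1* had -0.23 (95% interval -0.55 to 0.10). The fibrillar share of the summed level per kb ranged from 66.1% to 69.5% in control – PLX and from 60.9% to 65.2% in control + PLX choroids, without overlap. In *Tgfbr2ΔEC* choroids it ranged from 64.3% to 69.4% without and from 62.8% to 69.1% with PLX, and the groups overlapped. The network share ranged from 9.11% to 11.7% in control – PLX and 8.37% to 13.5% in control + PLX choroids, and from 8.04% to 12.1% and 9.53% to 12.7% in *Tgfbr2ΔEC* choroids, with overlap in both genotypes. The shares were not tested between the diets.

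**Figure D5:**
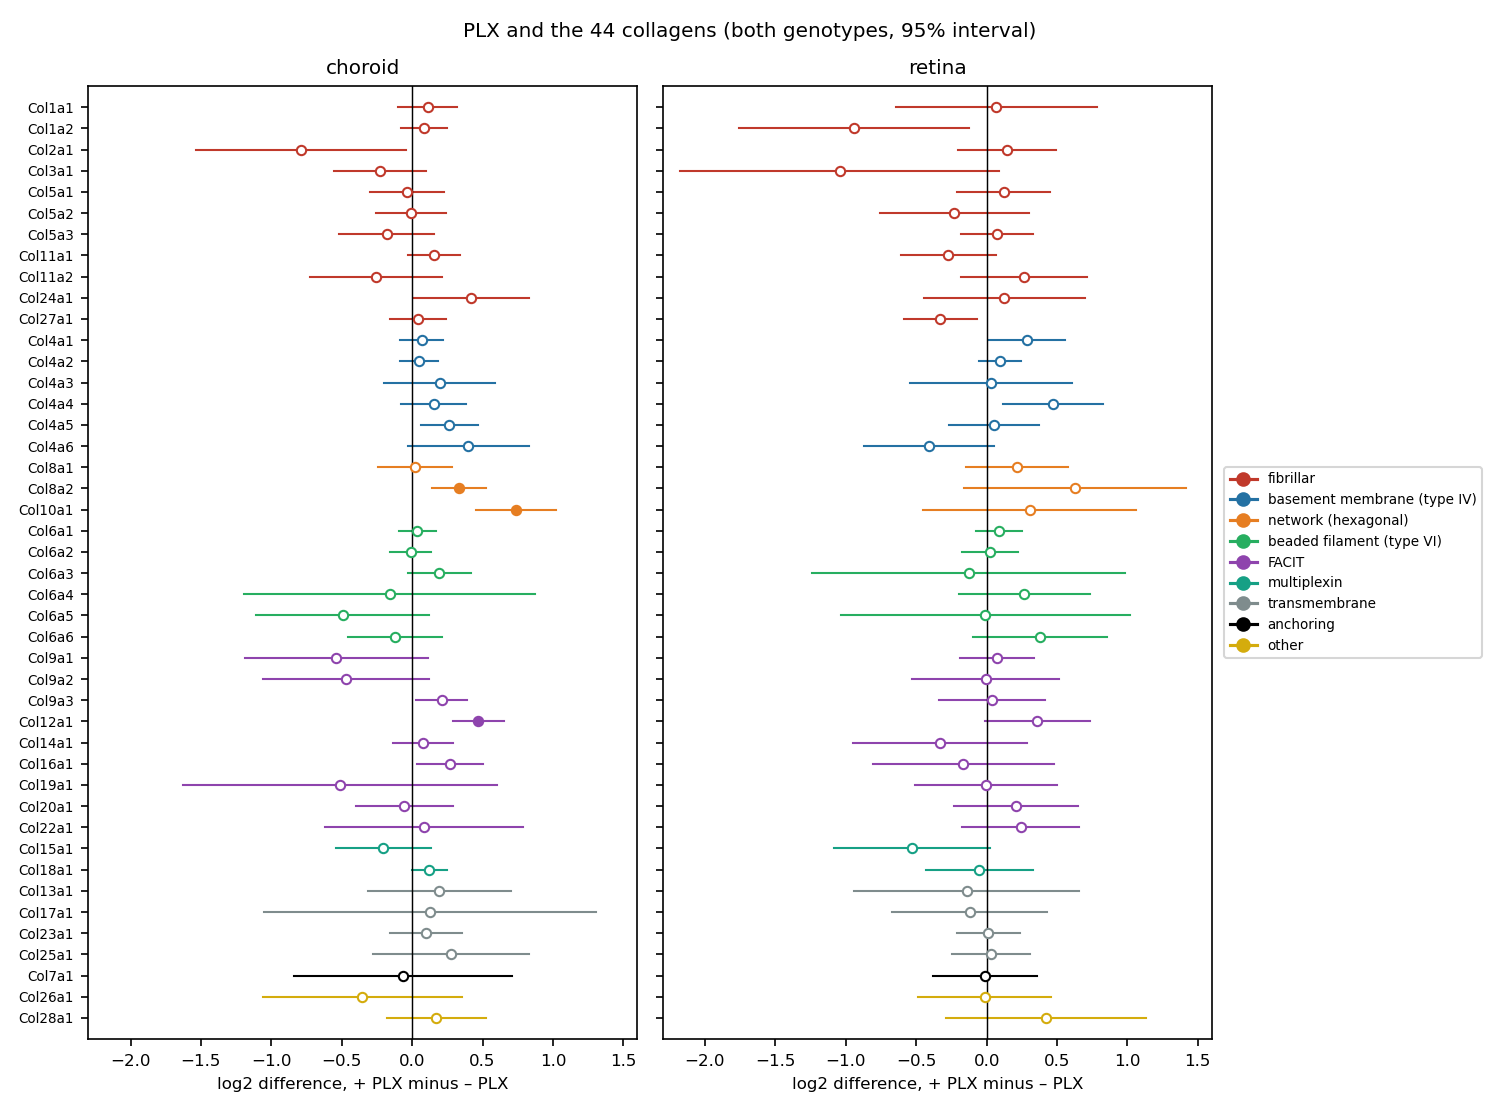
Difference with PLX minus without PLX over both genotypes for each of the 44 collagens (log2 scale, horizontal axis) in choroid (left) and retina (right), with the 95% interval from limma, coloured by class. Filled points passed the threshold: *Col8a2*, *Col10a1* and *Col12a1* in choroid, and none in retina.

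In retina 0 of 44 collagens were called with PLX over both genotypes by limma, and 4 had an unadjusted p under 0.05, where 1.09% of 23243 genes were called and 6.28% had such a p. The same held in controls (0 called, 2 with such a p) and in *Tgfbr2ΔEC* mice (0 called, 0 with such a p), beside 0.736% and 0.516% of all genes called and 5.74% and 3.95% with such a p. The genes with the smallest p were *Col4a4* (0.47, standard error 0.172, adjusted p = 0.436), *Col27a1* (-0.33, standard error 0.124, adjusted p = 0.479) and *Col1a2* (-0.94, standard error 0.393, adjusted p = 0.618). In control retinas *Col4a4* was 349 ± 93.2 without and 590 ± 125 with PLX (SD, n = 5 each), and the groups overlapped. *Col1a2* was 233 ± 142 without and 76.5 ± 45.2 with PLX in the same mice (SD, n = 5 each). In neither genotype was a collagen without overlap between the diets, beside 1.46% of all genes in controls and 1.24% in *Tgfbr2ΔEC* mice. In *Tgfbr2ΔEC* retinas *Col3a1* (-1.45), *Col15a1* (-0.70) and *Col11a2* (0.57) had the smallest p. Without mouse 9 the difference of *Col3a1* was -0.95, and without mouse 20 that of *Col15a1* was -0.46. For the genes that passed in choroid the retina gave 0.31 (95% interval -0.45 to 1.07) for *Col10a1*, 0.36 (95% interval -0.01 to 0.74) for *Col12a1* and 0.63 (95% interval -0.16 to 1.42) for *Col8a2*. The test of the difference between the tissues in the PLX effect called 0 collagens (5 at an unadjusted p under 0.05), where 1.37% of all genes were called and 10.2% had such a p. The smallest p belonged to *Col4a6* (0.81, adjusted p = 0.291), *Col1a2* (1.03, adjusted p = 0.335) and *Col27a1* (0.37, adjusted p = 0.377).

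Between the genotypes no collagen passed the threshold in either tissue or diet. In choroid without PLX 0 of 44 collagens were called by limma and 3 had an unadjusted p under 0.05, beside 0.00423% of 23619 genes called and 9.25% with such a p. That share is 1 gene, and 411 genes were called without mouse 15 and 303 in the 10 mice alone, with 0 collagens among them in each. The 3 were *Col20a1* (0.76, standard error 0.234, adjusted p = 0.224), *Col25a1* (1.13, standard error 0.375, adjusted p = 0.257) and *Col2a1* (1.22, standard error 0.507, adjusted p = 0.428). *Col20a1* was 416 ± 135 in *Tgfbr2ΔEC* – PLX and 239 ± 56.8 in control – PLX choroids, *Col25a1* 46.8 ± 16.3 and 22.5 ± 14.4, and *Col2a1* 166 ± 96.0 and 68.3 ± 41.1 (SD, n = 5 each). The groups overlapped for each of the 44 collagens, where 2.81% of all genes had no overlap. All 3 were among the 10 collagens that were lower in choroid than in retina. The photoreceptor score was 12.05 ± 0.677 in *Tgfbr2ΔEC* – PLX and 9.66 ± 1.28 in control – PLX choroids (SD, n = 5 each), with 10 of 10 of its genes at an unadjusted p under 0.05 and 0 called. With this score as a covariate the differences were 0.62, 1.02 and 0.71. *Col1a1* and *Col1a2* had genotype differences of 0.13 (95% interval -0.17 to 0.42) and 0.12 (95% interval -0.11 to 0.35) without PLX and did not pass the test.

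In choroid with PLX 0 of 44 collagens were called by limma and 1 had an unadjusted p under 0.05, beside 0.00423% of genes called and 3.76% with such a p. It was *Col10a1*, with 3694 ± 467 in *Tgfbr2ΔEC* + PLX and 2592 ± 206 in control + PLX choroids (SD, n = 5 each). All 5 *Tgfbr2ΔEC* mice were above all 5 controls, and 0.512% of all genes had no overlap in either direction. Adjusted over all genes the difference of 0.50 (standard error 0.192) was not past the threshold (adjusted p = 1.0 from limma). *Col15a1* (0.37, and 0.17 without mouse 17) and *Col14a1* (0.23, and 0.14 without mouse 13) followed. The difference between the genotype effects of both diets called 0 collagens, with *Col25a1* (1.55, adjusted p = 0.503) and *Col20a1* (0.96, adjusted p = 0.509) at an unadjusted p under 0.05, as were 6.57% of all genes.

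In retina the genotype comparison called 0 collagens and 0 of 23243 genes in each diet by limma. Without PLX, 1 collagen had an unadjusted p under 0.05, beside 3.26% of all genes. It was *Col9a3*, with 197 ± 47.1 in *Tgfbr2ΔEC* – PLX and 313 ± 65.4 normalized counts in control – PLX retinas (SD, n = 5 each), a difference of -0.67 (standard error 0.256, adjusted p = 0.985). With PLX, 2 collagens had such a p, beside 2.71% of all genes. *Col23a1* had a difference of -0.37 (standard error 0.152) and *Col8a1* of 0.55 (standard error 0.247), both with an adjusted p of 1.0. Without mouse 13 the difference of *Col8a1* was 0.30. The score of the pigment epithelium markers was 8.85 ± 0.242 in *Tgfbr2ΔEC* + PLX and 8.33 ± 0.892 in control + PLX retinas (SD, n = 5 each), and its part in these values was not tested. No collagen separated the genotypes without overlap in retina, beside 0.478% of all genes without and 0.422% with PLX. The interaction of genotype and diet called 0 collagens in retina, and 0 had an unadjusted p under 0.05, beside 2.44% of all genes.

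Genes that make, process, break down or bind collagens were examined as a list of 72, of which 69 were tested in each comparison. In choroid 60 of the 69 were higher than in retina and 4 were lower, with a median difference of 3.51 on the log2 scale, beside 40.8% of all genes higher, 41.1% lower and a median of -0.01. All 5 cross-linking genes (the lysyl oxidase family) were higher, as were 10 of 11 breakdown genes and inhibitors, 20 of 24 modification and folding genes and 12 of 13 basement membrane partners. The smallest p belonged to *Itgb1*, the common chain of collagen-binding integrins (3.68, standard error 0.037), and to *Timp2* (3.93, standard error 0.040) and *Timp3* (5.44, standard error 0.073), inhibitors of matrix metalloproteinases. Under PLX in choroid, over both genotypes, 2 of the 69 were higher and 5 lower, shares near the 2.07% and 5.06% of all genes. The laminin chains *Lama3* (0.51, adjusted p = 0.00163 from limma) and *Lamb2* (0.40, adjusted p = 0.00378) were higher. *Lair1*, an inhibitory collagen receptor of leukocytes, fell by 2.50 on the log2 scale (adjusted p = 1.83e-10 from limma), and *Mmp8*, a collagenase best known from neutrophils, fell by 1.49 (adjusted p = 0.00183). *Mmp9* (-0.51), *Timp1* (-0.36) and *Plod1* (-0.21), a lysyl hydroxylase, were also lower on the log2 scale. None of the 5 cross-linking and 8 tested procollagen processing genes passed the test.

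In retina *Lair1* was the only 1 of the 69 genes past the threshold with PLX (-0.73, adjusted p = 0.0229 from limma). Over both genotypes 1.09% of all genes were called there. The PLX effect differed between the tissues for *Lair1* (-1.77, adjusted p = 1.19e-06 from limma) and for *Fkbp14* (0.57, adjusted p = 0.0474), a folding enzyme of collagens, both as choroid minus retina. In this comparison 1.37% of all tested genes were called. In the genotype comparisons and their interactions 0 of the 69 passed in either tissue by limma, with 1 to 3 at an unadjusted p under 0.05 in each, beside 2.44% to 9.25% of all genes with such a p.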

How the data were processed

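Polyadenylated RNA of retina and choroid was sequenced as stranded single reads. Per the labels and the methods, the authors ran FastQC 0.11.5, Salmon 1.10.1 (GRCm39) and DESeq2 1.36.0. The deposited signal per gene is a normalized count that need not be whole. The methods describe separate analyses of the tissues, but the deposited values carry 1 scaling for both: median-of-ratios size factors recomputed from them over 15800 genes above 0 in all 40 libraries were the same in every library (1.01), whereas within a tissue they ran from 0.983 to 1.03 in choroid and from 0.992 to 1.04 in retina.

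GENCODE M39 gave symbols and positions for 53700 of 54307 genes. The collagen genes and all lists were chosen with earlier results of these data known. Values were tested as log2(normalized count + 1), on which changes of low genes appear too small, where the mean was at least 1. Fits were made in limma 3.58.1 (R 4.3.3) with its trend option, over the 20 libraries of a tissue or, where tissues were compared, all 40. Adjusted p-values at or under 0.05 were called. Named were the highest genes of each class, the chains of trimers and gene pairs, the 3 largest tissue differences each way and, elsewhere, the genes called or the 3 with the smallest p. A gene of the collagen or pathway lists named beyond these was chosen after its values were seen. Steps between low values gave about 20987000 to 30524000 reads per library. Only 45.6% to 72.2% of low values lay near whole reads, so reads were not recovered and no intervals of counting error are given. Whether libraries were made in batches is not given in the sources used here. The sex and neuronal share that the authors modelled were not used here. The fits were first tried on simulated data with known changes. Promoter windows came from RefSeq.

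Both tissues of a mouse come from 1 animal, so the mouse number pairs them. Their deviations from the group means correlated at -0.133 to 0.209 over 21236 genes (median 0.0847), above 0.1 in 6 of 20 mice. In 13 of 20 mice the correlation was best with the mouse's own retina. Alternatives were the mouse as a block, pseudocounts of 0.5 and 5, no minimum or a minimum of 10, equal totals, TMM scaling, robust variances, marker scores as covariates, 10 mice alone, and each mouse left out.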

Additional observations from a re-analysis of the deposited data

Results flagged for a closer look

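For 20 collagens named in the comparisons, each group of 5 mice was searched for a mouse whose gap to its nearest neighbour, as a part of the group's range, exceeded 0.71 (Dixon's 95% limit). Of 160 groups 22 held such a mouse. The limit would give about 8 if values were normal and independent. Gaps were taken on normalized counts and not on the log2 scale, and genes of 1 library are not independent. Whether 22 is more than chance would give was therefore not tested. Several of the 22 came from the same libraries. In retina of mouse 9 (*Tgfbr2ΔEC* – PLX) the value stood above the others for *Col2a1* (2088 normalized counts, gap 0.812), *Col8a1* (393, gap 0.899) and *Col10a1* (10.8, gap 0.755). In retina of mouse 11 (control + PLX), *Col11a2* (1725, gap 0.751) and *Col20a1* (1733, gap 0.792) were high and *Col25a1* (217, gap 0.739) was low. In choroid of mouse 15 (control + PLX), *Col2a1* (134, gap 0.822) and *Col11a2* (1630, gap 0.827) were high. The photoreceptor score of that choroid, 12.86, was the highest of its group, and its part in these values was not tested.

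In other retinas, mouse 7 (*Tgfbr2ΔEC* – PLX) was high for *Col11a2* (gap 0.724) and low for *Col25a1* (gap 0.763). Mouse 18 (*Tgfbr2ΔEC* + PLX) was high for *Col4a6* (gap 0.864) and *Col14a1* (gap 0.757), mouse 16 of this group for *Col8a2* (821, gap 0.758) and mouse 19 for *Col6a5* (gap 0.755). Among control – PLX retinas, mouse 4 was high for *Col23a1* (3845, gap 0.920) and *Col15a1* (gap 0.755), and mouse 2 was low for *Col12a1* (gap 0.735). In choroid, *Col2a1* was high in mouse 19 (*Tgfbr2ΔEC* + PLX, gap 0.858) and *Col15a1* in mouse 17 of the same group (5565, gap 0.740). *Col23a1* was high in choroid of mouse 3 (control – PLX, gap 0.758) and of mouse 10 (*Tgfbr2ΔEC* – PLX, gap 0.776). *Col4a4* was low in choroid of mouse 12 (control + PLX, 1802, gap 0.803). None of these values belongs to *Col10a1*, *Col12a1* or *Col8a2* in choroid.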

How the results depend on the processing

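No collagen changed its direction past the threshold under any alternative run. For the tissue difference, 1260 refitted member values stayed on their side of the threshold and 16 lost it, all of them of *Col4a3* (there 0.26 to 0.39 on the log2 scale, adjusted p up to 0.165 from limma). With the mouse as a replicate block, 41 collagens were called between the tissues in place of 42, without *Col4a3*, and the block changed no other collagen call. Leaving out single mice gave 41 to 42. With the fibroblast and sclera score as a covariate, PLX called 1 collagen in choroid over both genotypes and 0 in controls. With the 10 mice of a genotype alone, it called 0 in controls and 2 in *Tgfbr2ΔEC* mice, *Col12a1* being added. With 1 mouse left out, the count under PLX in choroid was 2 to 4 over both genotypes, 1 to 2 in controls and 1 to 2 in *Tgfbr2ΔEC* mice. In controls it rose to 2 without mouse 3 (*Col25a1* added) or mouse 12 (*Col8a2* added), and in *Tgfbr2ΔEC* mice without mouse 8 (*Col20a1* added) or mouse 17 (*Col12a1* added). Over both genotypes *Col10a1* kept a call throughout, at 0.68 to 1.00, while *Col12a1* (0.27 to 0.53) lost it in 1 and *Col8a2* (0.29 to 0.39) in 6 alternatives. The cause was not tested.

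Counts over all genes moved more. PLX in choroid called 1684 genes over both genotypes and 590 with the fibroblast and sclera score. In controls it called 885 genes, 511 with that score and 572 in 10 mice alone. In *Tgfbr2ΔEC* mice it called 958 genes, 355 with that score and 537 with the photoreceptor score. The PLX effect differed between the tissues for 332 genes, and for 620 without mouse 15. Between the genotypes in choroid without PLX, 1 gene was called, 303 in 10 mice alone, 411 without mouse 15, 2 without mouse 4 or 8, and 0 with a minimum of 10. With PLX 1 gene was called and 0 under 6 other settings and without 15 of the mice in turn. With a minimum of 10, PLX in retina called 154 in place of 254 genes and, in controls, 104 in place of 171. The widest spreads within groups (SD on the log2 scale) were those of *Col17a1* (1.37) and *Col19a1* (1.28) in choroid and of *Col3a1* (1.35) and *Col6a3* (1.30) in retina.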
